A study of Bos taurus with 8 samples.

Results

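Of the genes that hold WNT signalling in check, 5 were followed through the bovine preimplantation embryo: *DKK1*, *DKK3* and *FRZB*, which encode secreted antagonists, and *AXIN1* and *AXIN2*, which encode intracellular scaffolds. All array probes annotated to these genes were taken, which gave 9 probes (3 for *DKK1*, 2 each for *FRZB* and *AXIN2*, 1 each for *DKK3* and *AXIN1*) of 43653 gene probes in all. Embryos were produced in vitro from oocytes of slaughterhouse ovaries, fertilized with bull sperm and cultured in synthetic oviduct fluid. Inner cell mass (ICM), trophectoderm (TE) and intact blastocysts were collected on day 9 and morulae on day 5, with 2 replicate samples of pooled embryos in each of the 4 groups. ICM and TE were separated by hand with needles, and the study's own discussion states that a few TE cells cannot be kept off the ICM. By CDX2 staining of a selection of ICM isolates, the study counted a minority of TE cells in them, so ICM values include some TE RNA. Each sample was hybridized on a 2-colour array against a pool of blastocyst RNA. A note to the study's list of embryo numbers calls both blastocyst samples identical to blastocyst pools, so that a value near 0 in blastocysts follows at least in part from the design and the spread of the blastocyst replicates may be that of the arrays. The 2 blastocyst arrays, labelled in opposite dyes, correlated at -0.546 over all gene probes.

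WNT proteins are secreted ligands that bind Frizzled receptors and LRP co-receptors. Without ligand, beta-catenin is phosphorylated in a destruction complex built on AXIN proteins and is then degraded, and with ligand it accumulates and switches on target genes together with TCF factors. Several of these target genes feed back on the pathway, among them *AXIN2* and, in many tissues, *DKK1*, so their RNA is often read as a trace of pathway activity. In cattle embryos and in cultured pluripotent cells of several mammals, WNT signalling and its inhibition are studied for their effect on the balance between pluripotency and differentiation.

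Levels are given as the log2 ratio of a sample to the blastocyst pool, so that 0 stands for the level of the pool and 1 for a doubling. Since these are bulk samples, fewer cells of a type and less RNA per cell cannot be told apart. A probe was called between 2 groups at a Benjamini-Hochberg adjusted p under 0.05 over all gene probes (limma, all 8 arrays in 1 fit) with a difference of 2-fold or more. Without the fold minimum 31.8% of gene probes passed that p between blastocysts and morulae and 3.11% between ICM and TE. Counts at an unadjusted p have no share over all gene probes beside them, but that share is at least as large. The median intensity of the sample channel was 229.9 to 536 over the 8 arrays, with a median local background of 47.5 to 60.1. Between 90.3% and 94.8% of gene probes on each array were above background, meaning an intensity over the local background mean plus 2 standard deviations. The labels of the groups were checked against marker genes. All 4 measured epiblast markers were called higher in the ICM than in the TE, 2 of 8 trophectoderm markers were called lower in the ICM, and 6 of 8 trophectoderm markers were called higher in blastocysts than in morulae. Over all genes, each by its brightest probe, the same calls were made for 1.33%, 0.231% and 10.2%. The study calls the replicates biological, but no source used here says that they came from separate cultures, so the p-values measure only the spread between these samples, and the precision is limited by having 2 replicates per group.

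*DKK1*, which blocks the LRP co-receptors, was the gene of this set that set the stages apart: all 3 of its probes were higher in morulae than in any day 9 sample, and the day 9 groups lay close together. By its second probe the log2 ratio to the pool was 0.01 and 0.13 in ICM, 0.01 and 0.20 in TE, -0.14 and -0.01 in blastocysts and 1.81 and 2.33 in morulae. The morula samples thus stood clear of all 6 day 9 samples. The level was 4.43-fold lower in blastocysts than in morulae (log2 difference -2.15, standard error 0.13, n = 2 each, limma adjusted p = 1.31e-04). Relative to morulae, ICM was 4.00-fold lower (limma adjusted p = 1.81e-04) and TE 3.90-fold lower (limma adjusted p = 1.27e-04). At the level of the scanner, this spot gave intensities of 207 and 344 in ICM, 287 and 397 in TE, 234 and 351 in blastocysts and 1469.6 and 2599.7 in morulae, with the pool at 198 to 362 on the same 8 arrays.

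The other probes of *DKK1* had the same direction at different sizes. The third probe stood at -0.01 and -0.10 in ICM, -0.08 and 0.17 in TE, -0.16 and 0.04 in blastocysts and 1.64 and 1.95 in morulae. Its level was 3.61-fold lower in blastocysts than in morulae (log2 difference -1.85, standard error 0.12, limma adjusted p = 1.72e-04). The first and brightest probe stood at 0.15 and -0.00 in ICM, -0.05 and 0.02 in TE, -0.01 and -0.06 in blastocysts and 0.88 and 1.11 in morulae. Here the level was 2.04-fold lower in blastocysts (log2 difference -1.03, 95% confidence interval -1.32 to -0.74, limma adjusted p = 0.00119), an interval that does not meet that of the second probe (-2.46 to -1.84). On this probe the local background of morula replicate 1 was high, at a mean of 125 with a standard deviation of 207, so that its intensity of 576 lay barely above background. The pool channel of this probe was above background on 6 of 8 arrays, and not on those of ICM replicate 2 and morula replicate 1. Where along the transcript each probe binds was not analysed here.

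Because the first probe lies so near the 2-fold limit, it was called in blastocysts and TE against morulae but not in the ICM, where it was 1.89-fold lower (log2 difference -0.92, limma adjusted p = 0.00192). Without morula replicate 2 its difference between blastocysts and morulae was -0.90 and fell short of 2-fold, and without blastocyst replicate 2 it was -0.98. With a normexp background correction the second probe was still called (-1.55, adjusted p = 0.0191), while the first was under 2-fold (-0.91, adjusted p = 0.00304) and the third did not pass (-0.94, adjusted p = 0.0985). Within day 9, the largest difference of any *DKK1* probe was 0.18 on the log2 scale, between TE and blastocysts for the second probe (95% confidence interval -0.13 to 0.50, limma adjusted p = 0.829), so that a difference of up to 0.50 in that pair lies within its interval.

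Genes of the oocyte moved with *DKK1* between the stages. Of 7 measured oocyte markers, 5 were called higher in morulae than in blastocysts, as were 7.15% of all genes, and 2 (*ZP2* and *ZP3*) were not. The mean log2 ratio of the 7 was -0.08 and -0.06 in ICM, -0.07 and -0.00 in TE, 0.10 and 0.01 in blastocysts and 1.75 and 2.08 in morulae. *GDF9*, a growth factor secreted by the oocyte, had a log2 difference of -2.73 between blastocysts and morulae (limma adjusted p = 1.27e-04). The part of RNA kept from the oocyte in the *DKK1* result was not tested. None of 6 cumulus cell markers was called between blastocysts and morulae by limma, and 2 had an unadjusted p under 0.05.

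**Figure D1:**
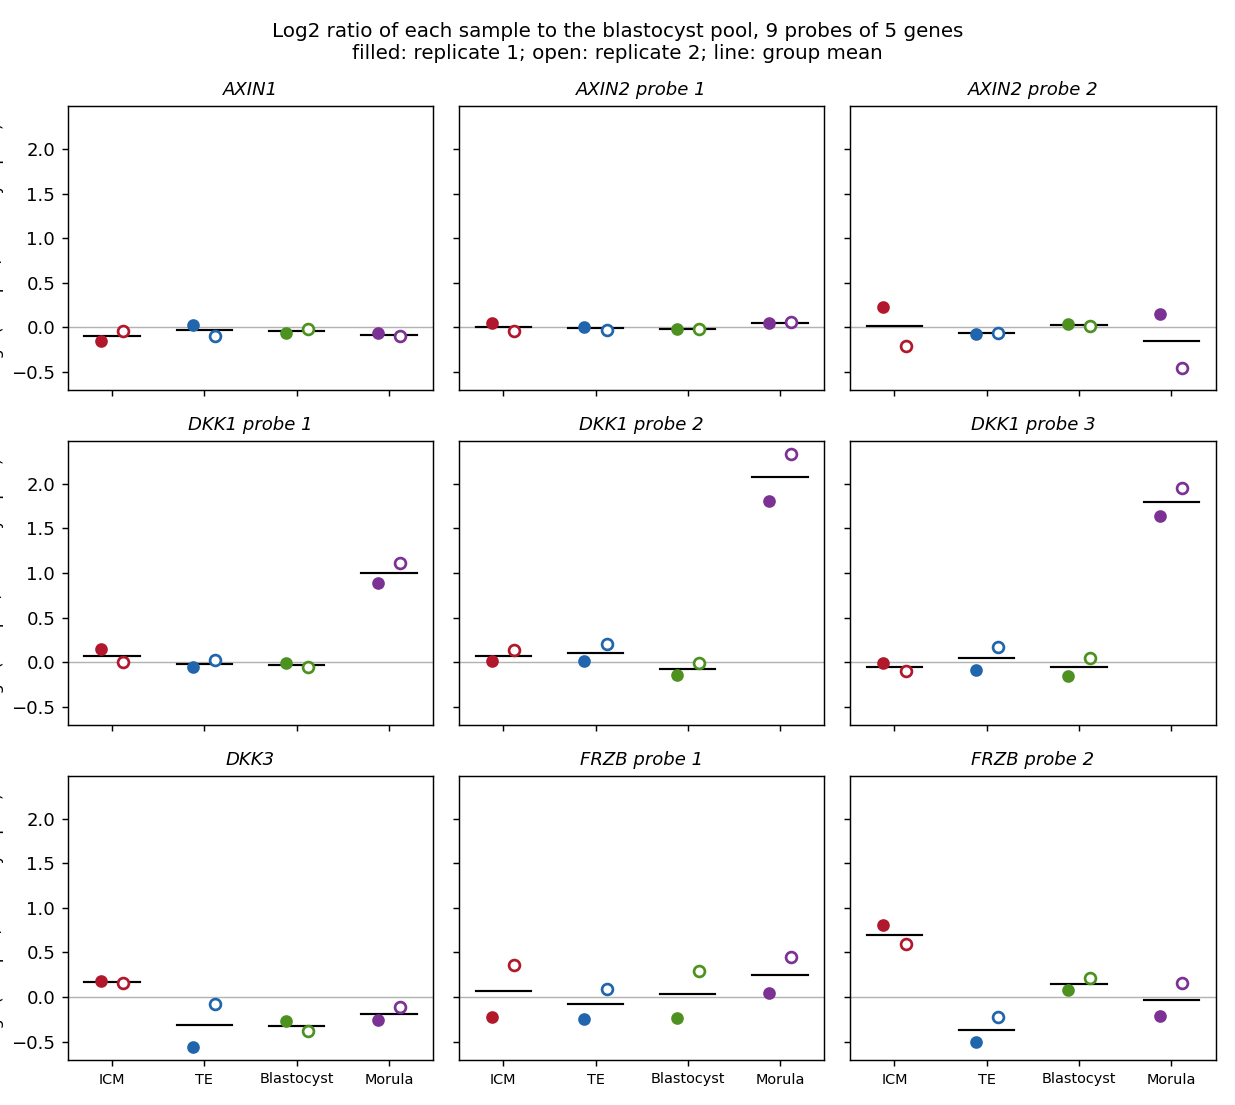
Log2 ratio to the blastocyst pool (y axis) of the 9 probes in each of the 8 samples, by group on the x axis; filled points are replicate 1, open points replicate 2, and the line is the group mean. The morula samples of the 3 *DKK1* probes sit between 0.88 and 2.33, above every day 9 sample, while the 2 ICM samples of *FRZB* probe 2, at 0.80 and 0.60, lie above the 2 TE samples at -0.51 and -0.22.

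*DKK3*, a divergent member of the Dickkopf family, had its highest level in the ICM. Its single probe stood at 0.18 and 0.16 in ICM, -0.56 and -0.08 in TE, -0.27 and -0.38 in blastocysts and -0.26 and -0.12 in morulae. Both ICM samples thus lay above the other 6 samples. The difference did not pass the adjusted threshold in any comparison. The ICM was 1.41-fold above the TE (log2 difference 0.49, 95% confidence interval 0.11 to 0.87, limma adjusted p = 0.181), 1.41-fold above blastocysts (log2 difference 0.50, adjusted p = 0.280) and 1.28-fold above morulae (log2 difference 0.36, adjusted p = 0.134). Below the ICM, the order of group means was morula, TE and blastocyst, and these 3 neighbours differed from each other by at most 0.14 on the log2 scale, with limma adjusted p-values of 0.588 and above. The TE replicates were 0.48 apart, the widest gap between replicates of *DKK3*.

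*FRZB* encodes a secreted Frizzled-related protein that binds WNT ligands outside the cell, and its 2 probes gave different pictures. The second probe was highest in the ICM and lowest in the TE, at 0.80 and 0.60 in ICM, -0.51 and -0.22 in TE, 0.08 and 0.21 in blastocysts and -0.21 and 0.16 in morulae. The ICM samples did not overlap with those of any other group. The ICM was 2.09-fold above the TE (log2 difference 1.07, standard error 0.15, n = 2 each, limma adjusted p = 0.0262). It was also 1.66-fold above morulae (log2 difference 0.73, limma adjusted p = 0.0127), which passed the adjusted p but not the 2-fold limit. Intact blastocysts lay between both dissected parts, at 0.55 below the ICM (ICM minus blastocyst 0.55, limma adjusted p = 0.222) and 0.51 above the TE (TE minus blastocyst -0.51, limma adjusted p = 0.348).

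The second *FRZB* probe was dim. Its intensities were 155.0 and 155.3 in ICM, 85.9 and 84.2 in TE, 114.0 and 118 in blastocysts and 107 and 115 in morulae, against local backgrounds with means of 41.7 to 77.0. Of the 8 sample channels 6 were above background, and TE replicate 1 and morula replicate 2 were not. The pool channel was above background on 5 of 8 arrays, and not on those of ICM replicate 2, blastocyst replicate 1 and morula replicate 1. The call between ICM and TE was lost without any 1 of the 4 samples compared (log2 difference 0.83 to 1.30, limma adjusted p 0.0760 to 0.165), with the 4 arrays of these groups alone (log2 difference 1.07, adjusted p = 0.0525) and with normexp background correction (log2 difference 0.37, adjusted p = 0.340). Marker genes moved between the same samples. The mean log2 ratio of the 4 epiblast markers was 0.91 and 1.12 in ICM samples, against -1.58 and -1.56 in TE samples, and that of the 8 trophectoderm markers was -0.22 and -0.16 in ICM samples, against 0.18 and 0.46 in TE samples. Of 7 primitive endoderm markers, 1 was called higher in the ICM, as were 1.33% of all genes. The part of these markers' cell types in the *FRZB* difference was not tested.

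The first *FRZB* probe was bright, at percentile 90.5 of all gene probes by intensity, and separated no pair of groups by 2-fold. It stood at -0.22 and 0.36 in ICM, -0.25 and 0.09 in TE, -0.23 and 0.29 in blastocysts and 0.04 and 0.45 in morulae. In all 4 groups replicate 2, labelled with Cy5, lay 0.33 to 0.58 above replicate 1, labelled with Cy3, a shift that the dye term of the fit takes up. Group means ran from 0.25 in morulae through 0.07 in the ICM and 0.03 in blastocysts to -0.08 in the TE. The TE was 1.26-fold below morulae (log2 difference -0.33, limma adjusted p = 0.0500, just under the threshold before rounding), and no other pair passed the adjusted p. Between ICM and TE this probe differed by 0.15 (95% confidence interval -0.10 to 0.40), an interval that does not reach the 1.07 of the second probe.

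*AXIN1*, the scaffold that holds the destruction complex together, hardly varied. It stood at -0.15 and -0.04 in ICM, 0.03 and -0.10 in TE, -0.06 and -0.02 in blastocysts and -0.07 and -0.09 in morulae, and its group means spanned 0.06 on the log2 scale. The widest pair, ICM against TE, differed by -0.06 with a 95% confidence interval of -0.31 to 0.18 (limma adjusted p = 0.884). All 8 sample channels were above background.

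*AXIN2*, the paralogue that beta-catenin induces as negative feedback, was as even by its bright probe. This probe stood at 0.05 and -0.04 in ICM, 0.00 and -0.02 in TE, -0.02 and -0.01 in blastocysts and 0.05 and 0.06 in morulae, so that the morula mean was the highest, with 1 ICM sample between both morula samples. Its group means spanned 0.07 on the log2 scale, and blastocysts minus morulae gave -0.07 (95% confidence interval -0.29 to 0.15, limma adjusted p = 0.650). In ICM replicate 2 the background around this spot was uneven (mean 429, standard deviation 1392), so that the sample counted as not above background there at an intensity of 619. The other *AXIN2* probe was at the detection limit, with intensities of 59.8 to 105 and 2 of 8 sample channels above background, and no difference was read from it.

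**Figure D2:**
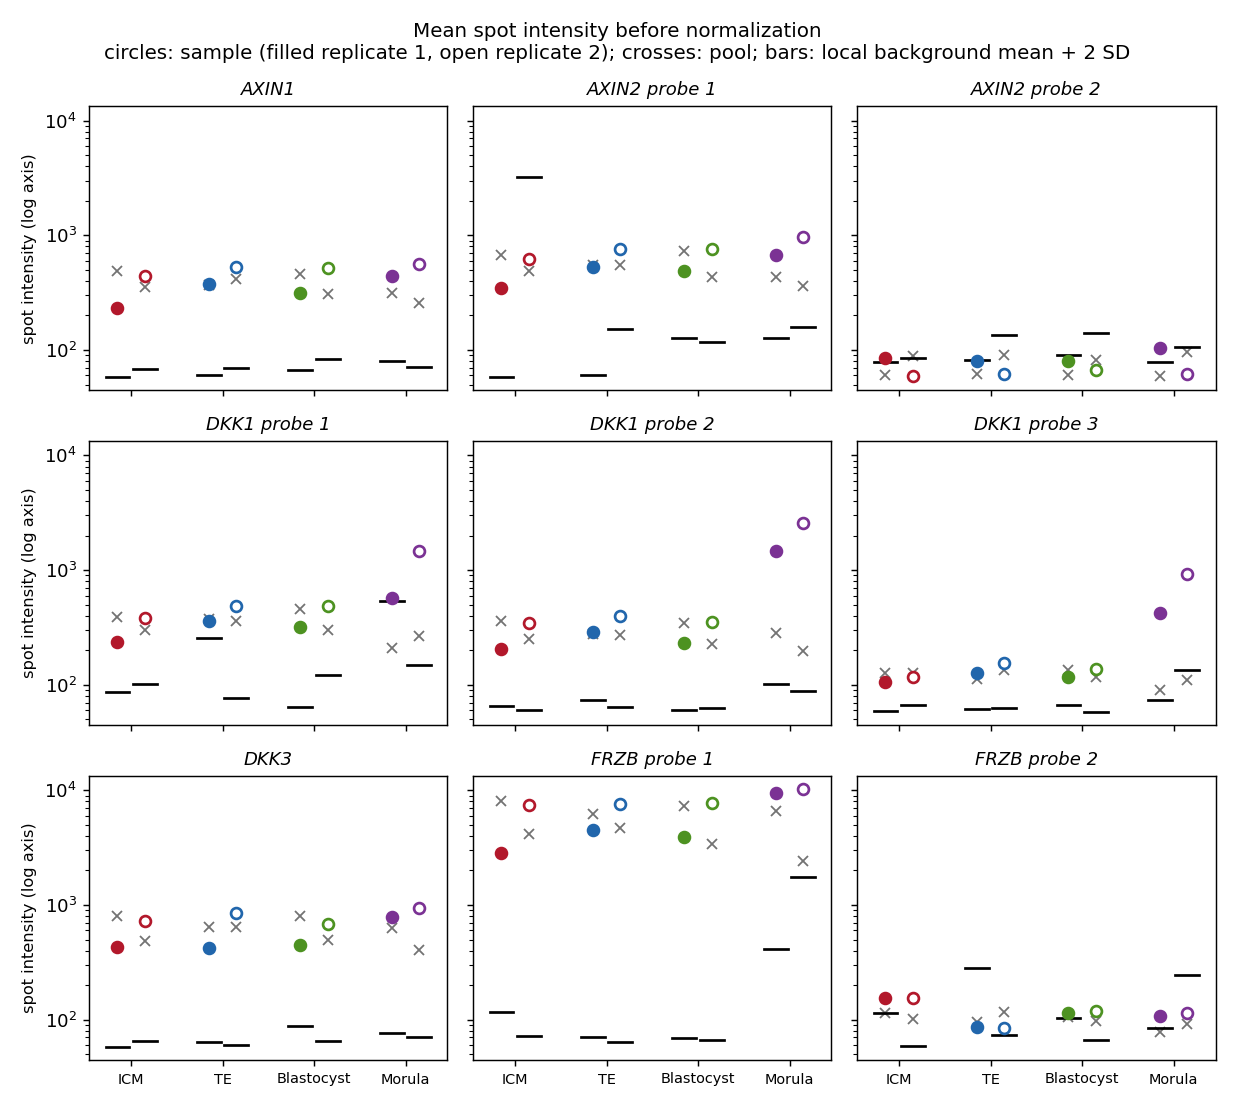
Mean spot intensity before normalization (y axis, log scale) of the 9 probes by group on the x axis, with the sample as circles (filled replicate 1, open replicate 2), the blastocyst pool of the same array as crosses, and the local background mean plus 2 standard deviations as bars. In morulae *DKK1* probe 2 stands at 1469.6 and 2599.7, against 282 and 198 for the pool on the same arrays. Over all groups *FRZB* probe 1 lies above background at 2851 to 10286 and *AXIN2* probe 2 lies near or below the bars. *FRZB* probe 2 is dim, and lies below the bars in TE replicate 1 and morula replicate 2.

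Across the 6 pairs of groups, the calls fell on *DKK1* and on the dim *FRZB* probe. Between blastocysts and morulae 3 of 9 probes were called, all *DKK1* and all lower in blastocysts, where 12.4% of all gene probes were called and 5.53% were called lower. Between ICM and TE 1 of 9 was called, *FRZB* probe 2, against 1.19% of all gene probes, with 1.03% called higher. For ICM against morula the count was 2 of 9, both *DKK1* and lower in the ICM, where 12.4% of all gene probes were called and 5.46% were called lower. For TE against morula it was 3 of 9, all *DKK1* and lower in the TE, where 14.8% were called and 7.04% were called lower. The samples of both groups did not overlap for 6 of 9 probes between blastocysts and morulae, against 54.3% of all gene probes, and for 2 of 9 between ICM and TE, against 37.7%, so neither count stands out from the background. No member probe was called between ICM and blastocyst or between TE and blastocyst by limma, where 0.0825% and 0.0389% of all gene probes were called. At an unadjusted limma p under 0.05, the ICM and blastocyst pair held *DKK3* and *FRZB* probe 2, and the TE and blastocyst pair held *FRZB* probe 2. The comparisons with morulae share the 2 morula samples and are not independent of each other. The median log2 difference over the 9 probes was -0.14 for blastocyst minus morula and 0.08 for ICM minus TE, where the median over all gene probes was 0.01 and 0.00.

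**Figure D3:**
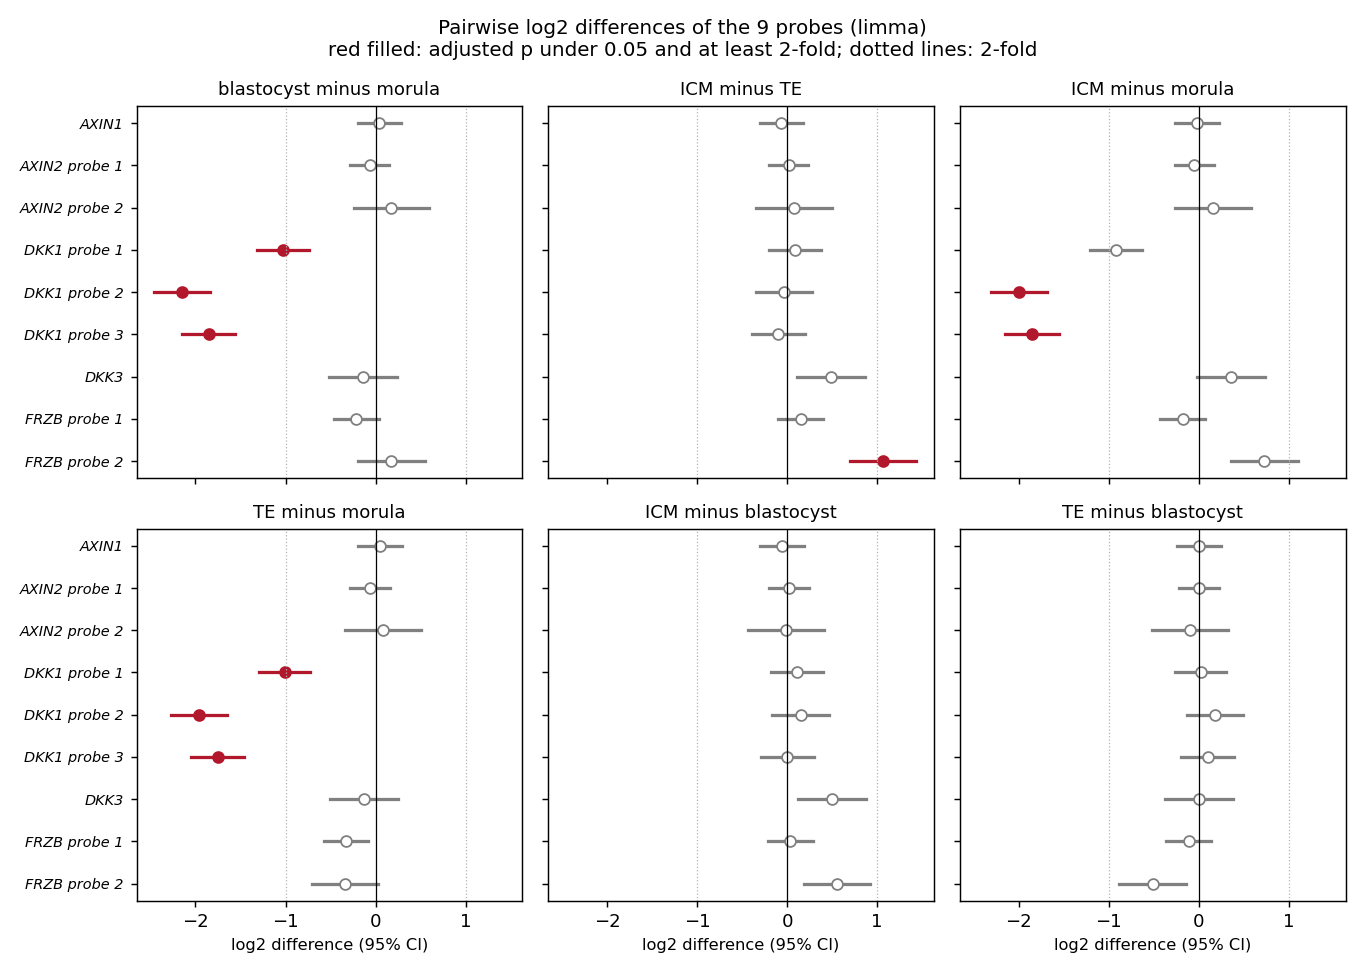
Log2 differences of the 9 probes (x axis, with 95% confidence intervals as lines) for the 6 pairs of groups, from limma over all 8 arrays; red filled points were called and dotted lines mark 2-fold. The *DKK1* probes lie between -0.92 and -2.15 in the 3 comparisons with morulae and within 0.18 of 0 in the other 3, and *FRZB* probe 2 is the only probe called between ICM and TE, at 1.07.

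The other genes of the pathway showed what the 5 stood among. Of 121 listed WNT pathway genes 89 were measured, and without the 5 members 84 remained, each represented by its brightest probe. Between blastocysts and morulae 9 of these 84 were called higher in blastocysts, 2 were called lower and 73 were not called. Of all 12543 genes 17.4% were called there, 10.2% higher and 7.15% lower. Between ICM and TE 1 was higher in the ICM, 1 was lower and 82 were not called. Of all genes 1.56% were called there, 1.33% higher and 0.231% lower. The median log2 difference over the 84 was 0.07 for blastocyst minus morula and -0.02 for ICM minus TE, against 0.04 and 0.01 over all genes. Both calls between ICM and TE were lost without any 1 of the 4 samples compared, where 0 pathway genes were called by limma.

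Among the ligands, 3 of 12 measured genes were called higher in blastocysts and none lower, where 10.2% and 7.15% of all genes were. *WNT6* stood at -0.28 and -0.70 in ICM, 0.37 and 0.01 in TE, -0.03 and -0.10 in blastocysts and -3.20 and -3.30 in morulae, and was 9.11-fold higher in blastocysts than in morulae (log2 difference 3.19, limma adjusted p = 4.14e-05). *WNT5B* was 2.92-fold higher (log2 difference 1.54, adjusted p = 0.0116) and *WNT2B* 2.37-fold higher (log2 difference 1.25, adjusted p = 0.00153). The blastocyst samples of *WNT5B* were far apart, at 0.63 and -0.76. By their other probes *WNT5B* and *WNT2B* differed by 0.23 and 0.09 and were not called. *WNT2B* was also the ligand called on day 9, at -0.72 and -0.64 in ICM samples, against 0.31 and 0.49 in TE samples (log2 difference -1.08, limma adjusted p = 0.0255). *WNT6* passed the adjusted p between ICM and TE but not the 2-fold limit (log2 difference -0.68, limma adjusted p = 0.0476). The ligand genes *WNT4* and *WNT9B* differed by 0.10 and -0.16 between blastocysts and morulae and by -0.08 and 0.32 between ICM and TE, and were not called.

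None of 11 measured receptors and co-receptors was called between blastocysts and morulae or between ICM and TE by limma, nor were the 4 measured R-spondin genes and receptors or, by their brightest probes, the ligand-secretion genes *WLS* and *PORCN*. No LRP gene was among the 11 measured, so nothing was read on the LRP co-receptors. *FZD2* and *RYK*, both WNT receptors, differed by 0.22 and 0.02 between blastocysts and morulae, and the *FZD2* spot was saturated on 2 of 8 arrays. Others of the list, picked after their values were seen, passed the adjusted p there under 2-fold and in opposite directions. These were *FZD1* (0.95, limma adjusted p = 0.00214) and *KREMEN2* (-0.78, limma adjusted p = 0.0252), and no other *FZD1* probe passed. *FZD8*, picked likewise, was called higher in the ICM than in morulae (1.41, limma adjusted p = 0.0117). At an unadjusted p under 0.05, 4 of the 11 receptors differed between blastocysts and morulae and 0 between ICM and TE, and of the R-spondin list 0 and 1. *WLS*, which escorts WNT proteins to the cell surface, differed by 0.16 by its brightest probe and by 2.85 by its other probe (limma adjusted p = 1.30e-04).

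Of the 10 other antagonists, 1 was called higher in blastocysts than in morulae, none was called lower, and none was called between ICM and TE by limma, where 2 had an unadjusted p under 0.05. The gene called was *SOSTDC1*, which binds LRP co-receptors, at 1.09 and 0.71 in ICM, -0.12 and 0.12 in TE, 0.68 and 0.07 in blastocysts and -0.42 and -0.90 in morulae. Its difference was 1.04 (limma adjusted p = 0.0108), with 4 of 8 sample channels above background. The Dickkopf relatives *DKKL1*, *DKK2* and *DKK4*, of which *DKK2* and *DKK4* were picked after their values were seen, differed by -0.06, 0.01 and -0.02 by their brightest probes between blastocysts and morulae, and none of these 3 was called. The *DKK4* spot was near the detection limit, with 4 of 8 sample channels above background, so its value says little. *SOST*, another ligand of the LRP co-receptors, named after its values were seen, had the direction of *DKK1* by its brightest probe, at -0.19 and -0.02 in ICM, -0.00 and -0.09 in TE, 0.08 and -0.01 in blastocysts and 0.97 and 0.99 in morulae (blastocyst minus morula -0.95, limma adjusted p = 0.00104, under 2-fold). This probe was called lower in ICM (-1.09) and TE (-1.03) than in morulae, while the second *SOST* probe had the other sign between blastocysts and morulae without passing (0.30, limma adjusted p = 0.453). *APCDD1*, of the same list and picked likewise, went the other way by its brightest probe (blastocyst minus morula 0.92, limma adjusted p = 0.00883, under 2-fold). Its second probe was called higher in blastocysts (1.10, limma adjusted p = 0.00734), and its other probes differed by 0.37 and -0.07 without passing. The brightest *APCDD1* probe was called higher in the ICM than in morulae (1.63). *SFRP2*, a relative of *FRZB* also named after its values were seen, had the widest mean difference of the list between ICM and TE, 1.31, without passing (limma adjusted p = 0.690), and its replicates were far apart, at 0.68 and -1.57 in blastocysts and -1.18 and 1.78 in morulae.

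Of 5 other feedback genes, a list that also holds the membrane proteins RNF43 and LGR5, *SP5* was called between blastocysts and morulae. *SP5*, a zinc finger factor that beta-catenin induces and that acts on other target genes of the pathway, stood at 0.44 and -0.31 in ICM, -0.25 and -0.16 in TE, -0.19 and -0.25 in blastocysts and 2.79 and 2.55 in morulae. It was 7.42-fold lower in blastocysts than in morulae (log2 difference -2.89, limma adjusted p = 2.11e-04), and its morula samples, like those of *DKK1*, lay above all day 9 samples. *NKD2*, which binds Dishevelled, and *RNF43*, which removes Frizzled receptors from the cell surface, differed by 0.24 and -0.11 and were not called.

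Inside the cell, none of the 12 measured destruction complex genes was called between blastocysts and morulae by limma, although 9 had an unadjusted p under 0.05. Over all gene probes 31.8% passed even the adjusted p in this comparison without a fold minimum. *PPP2CA*, a phosphatase subunit, lay just inside 2-fold at -0.97 (limma adjusted p = 5.01e-04). Of 8 measured genes of the Dishevelled and beta-catenin list 3 were called higher in blastocysts: *CTNNB1*, which encodes beta-catenin itself (log2 difference 1.41, limma adjusted p = 5.97e-04), *DACT1* (1.25) and *CXXC5* (1.07), which both act on Dishevelled. Of 14 TCF factors and nuclear partners, *TLE3*, a co-repressor, was 3.76-fold higher in blastocysts (log2 difference 1.91, limma adjusted p = 1.05e-04) and *TCF7L2* was 2.72-fold lower (log2 difference -1.44, limma adjusted p = 5.14e-04). This probe is named TCFL2 on the array and was taken as *TCF7L2* because RefSeq lists TCFL2 as its synonym, while probes that the array names TCF7L2 were left unnamed, since RefSeq lists that symbol as a synonym of *TCF4*. With the gene so assigned, *TCF7L2* was the pathway gene called higher in the ICM than in the TE (0.48 and 0.89 in ICM, -0.34 and -0.36 in TE, log2 difference 1.03, limma adjusted p = 0.0191).

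The called common WNT target genes did not share a direction. Of 15 measured, *DKK1* and *SP5* were lower in blastocysts than in morulae. *ASCL2*, a basic helix-loop-helix factor of the trophoblast, was higher (log2 difference 3.83, limma adjusted p = 1.32e-04), and 12 were not called, *AXIN2* among them. Of all genes 17.4% were called, 10.2% higher and 7.15% lower in blastocysts. *CCND1*, a cyclin, and *MYC*, a growth-promoting factor, stood 0.75 and 1.00 higher in blastocysts, under 2-fold in each case. As with *DKK1* and *FRZB*, probes of 1 gene often differed. Of the 11 genes of the 84 that were called between blastocysts and morulae 8 had another probe, and for 3 of these (*CTNNB1*, *CXXC5* and *TLE3*) a further probe had the same call, whereas the second probe of *SP5* differed by -0.16 with 3 of 8 sample channels above background, and the 3 other probes of *WNT6* by -0.12 to 0.43. Of the 2 genes called between ICM and TE both had another probe and 0 had a further probe with the same call, at -0.16 for *WNT2B* (limma adjusted p = 0.657) and at 0.66, 0.26 and 0.07 for *TCF7L2*.

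**Figure D4:**
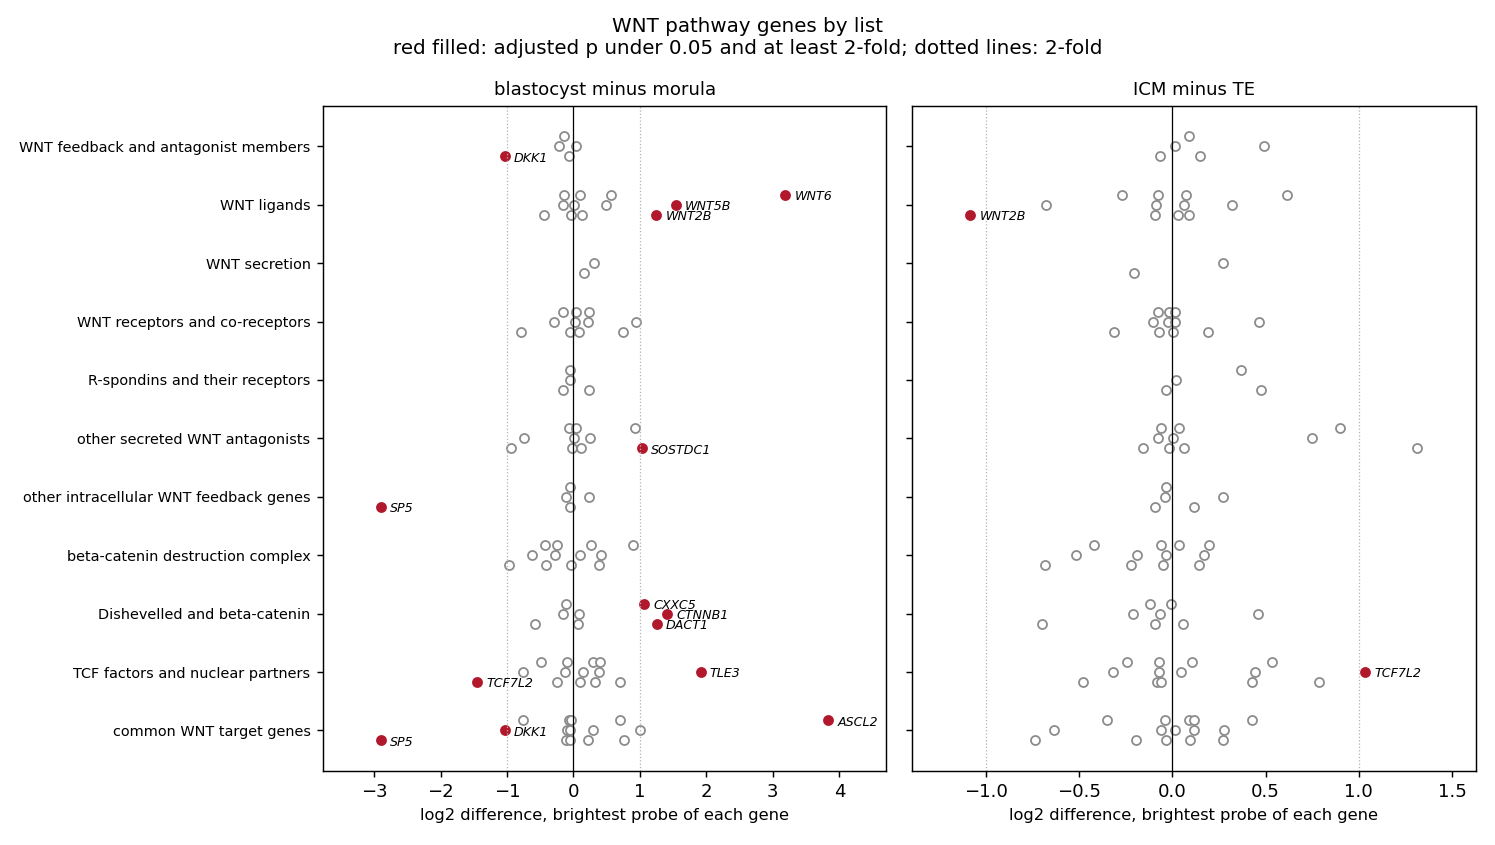
Log2 differences (x axis) of the WNT pathway genes by list (rows), 1 point per gene from its brightest probe, for blastocyst minus morula and ICM minus TE; red filled and named points were called by limma, and a gene on 2 lists appears in both. In the left panel *DKK1* (-1.03), *SP5* (-2.89) and *TCF7L2* (-1.44) are the called genes on the morula side, and in the right panel only *WNT2B* (-1.08) and *TCF7L2* (1.03) are called.

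The genes most like each called probe were found by the smallest root mean square difference of the log2 ratios over the 8 samples, among the brightest probes of all other genes. For *DKK1* probe 1 these were *FBXO43* (0.0763), *TUBG2* (0.0787) and *FBXW2* (0.0820), where the median gene was at 0.558. For *DKK1* probe 2 they were *LIX1* (0.158), *IQCB1* (0.161) and *BMP15* (0.168) against a median of 1.08, and *BMP15*, an oocyte growth factor, is one of the oocyte markers, above background in 1 of 2 morula samples. For *DKK1* probe 3 they were *WDR36* (0.140), *MAGEB16* (0.148) and *TIMP4* (0.149) against a median of 0.943. *FRZB* probe 2 was nearest to *SMARCA2* (0.188), *BCL2L14* (0.210) and *TNP1* (0.211) against a median of 0.502, and *SMARCA2* stood at a mean of 0.84 in ICM, -0.20 in TE, 0.13 in blastocysts and 0.08 in morulae. These values rank likeness of level over samples that share a pool and 2 dye orientations, and no test was attached to them.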

How the data were processed

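RNA of bovine embryos was measured on 8 two-colour Agilent arrays, with replicate 1 of each group in Cy3, replicate 2 in Cy5 and a blastocyst pool in the other channel. The deposited intensity values are mean spot intensities that the authors extracted with Imagene 8.0, not normalized. The authors' deposited log2 values, the ratio of sample to pool after loess and a correction of gene-specific dye bias, served as an alternative (r with the values used here 0.727 to 0.993, column medians -0.00 to 0.01).

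From the intensities, without background subtraction, which the study's methods do not mention, log2 ratios were formed after loess within each array, with the 1567 control spots left out. Group means and a dye term were fitted over all 8 arrays in limma 3.58.1 (R 4.3.3), in place of the permutation test of the methods, with 3 residual and 3.17 prior degrees of freedom. P-values were Benjamini-Hochberg adjusted over 43653 gene probes, and a call needed an adjusted p under 0.05 and 2-fold. The dye term equals a block by replicate number, which the methods model. Replicate differences correlated at 0.201 to 0.486 over the 6 pairs of groups.

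Probes were named from the platform annotation, with symbols updated through RefSeq: 11579 were current, 838 were updated and 135 were not found. There were 15701 probes without a symbol, and 3 ambiguous symbols on 6 probes were left unnamed. Genes with several probes were represented by the brightest, since the most 3' probe that the methods chose could not be determined here. Named genes were, of each pathway list, up to 3 called genes of the largest difference for blastocyst minus morula and for ICM minus TE and up to 2 genes not called, by intensity, and the 3 genes most like each called member probe. Of the oocyte markers, *GDF9* was named, *ZP2* and *ZP3* as those not called, and *BMP15* as a gene most like *DKK1* probe 2. Pathway genes picked after their values were seen are marked so where they are named. The members and lists were chosen with earlier results of these data known. The fit was also run on simulated data with independent normal errors of the fitted spread. Such data meet the assumptions of the fit, so that run cannot show that they hold for these arrays. Alternatives were median centring, quantile scaling, normexp, the deposited log2 values, other fold minimums, a filter on dim probes, the arrays compared alone, the mean over probes, no dye term, and leaving out each replicate.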

Additional observations from a re-analysis of the deposited data

How the results depend on the processing

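With normexp background correction, which shrinks differences of dim probes, 1 member probe was called between blastocysts and morulae, 0 between ICM and TE, 1 between ICM and morulae and 1 between TE and morulae, against 3, 1, 2 and 3, and of the 89 pathway genes 7 were called between blastocysts and morulae and 0 between ICM and TE, against 12 and 2. Between ICM and TE 0 member probes were called on the 4 arrays alone, and 0 with the dimmest 40% of probes left out, where *FRZB* probe 2 was not tested and 1 probe was called between ICM and morulae. Median centring gave 4 member probes between ICM and morulae and 1 pathway gene between ICM and TE. It also turned the share of higher calls over all probes to 44.2% (55.3% with loess) for blastocyst minus morula, 70.9% (86.4%) for ICM minus TE and 42.3% (56.1%) for ICM minus morula, where the median of all probes stood at 0.11. A 1.5-fold minimum gave 4 member probes between ICM and morulae and 23 and 5 pathway genes, and no fold minimum gave 4, 31 and 5. With the mean over probes, 0 pathway genes were called between ICM and TE, and *FRZB* ICM minus morula was 0.28 in place of -0.18 for probe 1, since it averages both probes.

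Leaving out 1 replicate gave 2 to 3 member probes between blastocysts and morulae, 0 to 1 between ICM and TE, 2 to 3 between ICM and morulae and 2 to 3 between TE and morulae, and 10 to 13 and 0 to 2 pathway genes. Without the replicate block, the counts were 3, 1, 2, 3, 0 and 0 over the 6 pairs of groups, as with it, and *FRZB* probe 2 kept its call between ICM and TE (1.07, limma adjusted p = 0.0325). The deposited log2 values gave the same counts. In a setting chosen after seeing the data, in which any probe of a gene could carry its call, 14 of the 84 other pathway genes were called between blastocysts and morulae and 2 between ICM and TE, where 21.5% and 2.03% of all genes were called by that rule. Of 810 values of member probes under alternatives 789 kept their side of the threshold, 15 lost and 5 gained a call, and 1 that passed the adjusted p under the alternative turned its sign. The 789 include settings that did not move the differences. In this balanced design, leaving out the dye term changes the p-values but not the differences. Quantile scaling gave the same numbers of calls and the same medians over all gene probes as the main setting. Among differences that passed the adjusted p under neither setting, 55 changed sign (up to 0.18 in size here and 0.48 under the alternative). Dim spots limit *AXIN2* probe 2 and *FRZB* probe 2 most.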
